A study of Mus musculus with 20 samples.

Results

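The methylation of 30 genes of fatty acid oxidation and ketogenesis was measured in the liver of mouse offspring at birth and at weaning. The genes were chosen by name, as carriers and enzymes of the pathway, and not by their measured values. A CpG was counted to a gene from 5 kb upstream of its transcription start site (TSS, the 5′ end of the GENCODE M21 gene record on GRCm38/mm10) to the gene end. It was kept where at least 10 reads covered it in at least 3 libraries of each of the 4 groups. Of 906622 autosomal CpGs kept in this way, 1019 lay in 28 of the 30 genes, out of 20807 autosomal protein-coding genes.

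Mitochondrial β-oxidation shortens fatty acids in repeated rounds and passes the electrons to the respiratory chain. Long chains enter through the carnitine shuttle, peroxisomes take the chains that mitochondria handle poorly, and in liver part of the acetyl-CoA leaves as ketone bodies. Before birth the liver is supplied mainly with glucose. After birth it lives on fat-rich milk, and these genes are among the classical targets of the fasting receptor PPARα.

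All 20 libraries were made by reduced representation bisulfite sequencing (RRBS) of bulk liver from wild-type C57BL/6J mice that the labels give as male, with 5 libraries in each of 4 groups. RRBS cuts DNA at CCGG with MspI and reads the ends of the short fragments, so that it sees CpG-rich stretches best. Con-d0 and Con-d21 were pups of dams on control diet without stress, taken on day 0 and day 21. AME-d0 and AME-d21 (AME, adverse maternal environment) were pups of dams on a Western diet from before mating through pregnancy and lactation, which late in gestation were also stressed by reduced bedding and by day-to-day disturbances of light, cage and objects. The d0 pups were delivered by Caesarean section, whereas the d21 pups came from other dams, were born naturally and were fasted before death, so that age, delivery and fasting cannot be told apart. The libraries of a group are separate samples, but their labels tie none to a litter, and a p-value covers the spread between these samples only.

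The deposited counts summed to 23248139 to 45769589 per library over all CpGs, a read being counted at each CpG it covers, with a median of 7 to 13 reads per covered CpG. AME-d21 replicate 4 had 2.88 X reads for every 100 autosomal ones, where the other 19 libraries had 1.40 to 1.55. Of a library's reads per 1000000, 14.3 fell on the short arm of Y in this library and 147 to 191 in the others, which goes against its label of male. AME-d0 replicates 1 and 3 stood apart by their share of methylated reads, 30.1% and 29.3%, against 34.5% to 37.9% in the other d0 libraries and 38.9% to 41.6% at d21. The counts of listed bodies, bins and CpGs called with age in AME are also given without these libraries below. Marker promoters, group means and the interaction are given with all libraries only. Promoters of liver and blood marker genes moved with age. In Con all 3 tested hepatocyte marker promoters fell, by a median of 37.9 percentage points, and 9 of 10 haematopoietic and myeloid marker promoters rose, by a median of 21.4 points. The mean of the hepatocyte promoters was 59.8% to 62.0% in the Con-d0 libraries and 19.3% to 30.5% in Con-d21. That of the haematopoietic and myeloid promoters was 13.7% to 16.6% and 30.7% to 35.3%. AME gave the same counts, 3 lower and 9 higher. Tested were 3 of 17 listed hepatocyte promoters and 10 of 17 haematopoietic and myeloid ones. In both Con and AME, 3 of 5 erythroid, 2 of 4 endothelial and 3 of 6 stellate cell promoters also rose, and 0 fell. Of 1 Kupffer cell and 2 cholangiocyte promoters tested, 0 were called. Over all promoters 12.8% were called higher and 3.17% lower in Con, and 13.4% and 2.8% in AME. None of the 7 marker lists had a promoter past the test between AME and Con at either age. Of all 12406 promoters 0 passed it at either age, so that this is not particular to the markers.

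Coverage differed widely between the genes. The kept CpGs lay mainly at promoters, here the 1 kb on either side of the TSS, and at CpG-rich stretches within the genes. A promoter, an upstream flank (5 to 1 kb before the TSS) or a gene body (from 1 kb after the TSS to the gene end) was tested where it held at least 3 kept CpGs. This gave 23 promoters, 5 flanks and 21 bodies, to which 200-bp bins with at least 2 kept CpGs added 154 finer windows. The reads given for a region or bin are summed over its CpGs. A read is counted at each CpG it covers, so that separate reads can be fewer. Acadvl, the very long-chain acyl-CoA dehydrogenase, and Pdk4, the kinase that turns off pyruvate dehydrogenase in fasting, had 0 kept CpGs, although 55 and 62 of their CpGs were read at least once. Echs1, Acat1, Bdh1 and Eci2 had 0 kept CpGs in the promoter and Acads, the short-chain dehydrogenase, had 2. Nothing is reported for the promoters of these 7 genes at the start sites used here. Values at another start site of Eci2, within its body, are given below. Hadha and Hadhb, the 2 subunits of the mitochondrial trifunctional protein, are transcribed away from each other and share the same 16 promoter CpGs, so that their promoter values are a single measurement.

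Windows of some of the largest changes are shown first as sequence, because most of them rest on few measured CpGs. All 7 bins are printed from the plus strand of GRCm38, with the measured CpGs in capitals. The first 4 lost methylation between day 0 and day 21 in both Con and AME, as did the bin of Slc25a20. The windows of Crot (chr5:8990601-8990800) and Hadh (chr3:131263801-131264000) lie in introns. That of Acaa1a (chr9:119342601-119342800) overlaps an exon and lies upstream of the TSS of Myd88 (its centre at -1289 bp). That of Bdh1 at chr16:31433801-31434000 lies in an intron, and that of Slc25a20 (chr9:108662801-108663000) overlaps an exon.
Crot, centre 6624 bp after the TSS: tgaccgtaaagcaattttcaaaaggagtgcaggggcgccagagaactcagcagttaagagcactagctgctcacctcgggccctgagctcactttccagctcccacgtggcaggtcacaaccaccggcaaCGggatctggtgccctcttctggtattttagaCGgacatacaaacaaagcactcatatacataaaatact
Acaa1a, centre 3024 bp after the TSS: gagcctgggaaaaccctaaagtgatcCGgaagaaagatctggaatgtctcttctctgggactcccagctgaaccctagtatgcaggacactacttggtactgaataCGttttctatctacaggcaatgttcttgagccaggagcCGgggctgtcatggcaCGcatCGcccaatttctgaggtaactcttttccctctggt
Hadh, centre 8201 bp after the TSS: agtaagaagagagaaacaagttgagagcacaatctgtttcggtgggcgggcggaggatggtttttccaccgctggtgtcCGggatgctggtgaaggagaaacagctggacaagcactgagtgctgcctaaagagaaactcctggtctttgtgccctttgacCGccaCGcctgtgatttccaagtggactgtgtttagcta
Bdh1, centre 11620 bp after the TSS: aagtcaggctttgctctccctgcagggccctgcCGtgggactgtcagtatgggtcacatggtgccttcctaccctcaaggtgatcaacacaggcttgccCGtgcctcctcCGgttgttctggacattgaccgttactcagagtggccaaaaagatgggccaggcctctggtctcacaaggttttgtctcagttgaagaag
Slc25a20, centre 812 bp after the TSS: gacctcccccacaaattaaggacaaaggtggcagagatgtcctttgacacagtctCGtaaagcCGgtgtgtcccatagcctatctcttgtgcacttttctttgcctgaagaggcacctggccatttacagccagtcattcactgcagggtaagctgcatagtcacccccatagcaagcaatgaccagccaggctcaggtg
The next 2 gained methylation in both. The Bdh1 window (chr16:31429001-31429200) lies in a CpG-dense stretch around the start of the long non-coding RNA gene Gm15743, and that of Decr1 (chr4:15930801-15931000) overlaps an exon.
Bdh1, centre 6820 bp after the TSS: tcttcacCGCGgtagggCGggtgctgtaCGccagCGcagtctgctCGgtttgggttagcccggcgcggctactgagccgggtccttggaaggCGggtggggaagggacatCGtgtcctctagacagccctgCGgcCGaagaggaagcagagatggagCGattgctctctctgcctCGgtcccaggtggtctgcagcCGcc
Decr1, centre 14607 bp after the TSS: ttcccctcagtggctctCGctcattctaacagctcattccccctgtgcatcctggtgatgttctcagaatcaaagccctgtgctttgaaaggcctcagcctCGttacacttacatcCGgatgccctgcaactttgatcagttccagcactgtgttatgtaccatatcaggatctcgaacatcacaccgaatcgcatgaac
The promoter of Acadm is shown as an example of the unmethylated promoters. These 250 bases before the TSS of RefSeq (chr3:153944644-153944893, minus strand, from the RefSeq promoter table for GRCm38, which held 24 of the 30 genes) contain 12 CpGs, of which 5 were measured.
Acadm promoter, 250 bases before the TSS: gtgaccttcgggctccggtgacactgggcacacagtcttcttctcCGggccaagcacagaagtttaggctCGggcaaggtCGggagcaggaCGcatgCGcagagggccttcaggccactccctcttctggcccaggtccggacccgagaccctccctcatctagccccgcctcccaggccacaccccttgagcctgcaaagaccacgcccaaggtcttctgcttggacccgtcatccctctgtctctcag

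The bins that fell in Con held a median of 4 CpGs and none was CpG-dense, a label used for 500-bp stretches whose G and C content reaches 55% and whose CpG ratio, observed to expected, reaches 0.65. The bins that rose held a median of 6 CpGs and 5 of them were CpG-dense, all in Bdh1. The letters AGGTCA, the core element of PPARα and other nuclear receptors, were found on either strand in 1 of the 16 bins that fell and in 2 of the 15 that rose, against 10.5% of all 157989 bins. TGTTTAC, the letters that FOXA factors read, was likewise found in 1 and 2 bins, against 1.97% of all bins. CCGG, the MspI site, was found in all 31, against 98.7% of all bins. The searched motifs do not overlap each other, and a match is a description of the sequence only.

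Promoter methylation of the pathway was low at both ages. The mean over the 23 promoters was 3.66% ± 0.217 in Con-d0 and 3.40% ± 0.104 in Con-d21 (SD, n = 5), and 3.64% ± 0.260 and 3.59% ± 0.124 in AME-d0 and AME-d21. The mean over all tested promoters was 6.90% ± 0.142 and 7.85% ± 0.0855 in Con, and 6.68% ± 0.238 and 7.88% ± 0.0483 in AME. Cpt1b, the muscle form of carnitine palmitoyltransferase I, was the exception with 62.3% ± 3.25 in Con-d0 and 63.5% ± 1.20 in Con-d21. Cpt1a, the liver form and rate-limiting step of entry into mitochondria, followed with 8.98% ± 3.75 and 5.27% ± 0.600, and Slc25a20, the carnitine-acylcarnitine carrier, with 5.00% ± 1.53 and 2.81% ± 0.769. The Slc25a20 promoter includes the bin 812 bp after the TSS. The Cpt1a values are those at the start of the gene record. At the TSS of the principal APPRIS isoform, 951 bp further on, the Cpt1a promoter had 0.148% and 0.0510% in Con on 30 CpGs. In AME it had 0.0340% and 0.0348% there. Acaa1a, the peroxisomal thiolase, had 1.83% ± 1.46 and 3.81% ± 1.04. The other 19 promoters were below 2% in every group mean. Within the Cpt1b promoter 1 CpG was called with age in Con and 1 in AME, by the single-CpG test described below. That in Con, at -546 bp from the TSS, fell from 74.0% to 28.7%. That in AME, at 361 bp, rose from 59.2% to 82.6%.

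**Figure D1:**
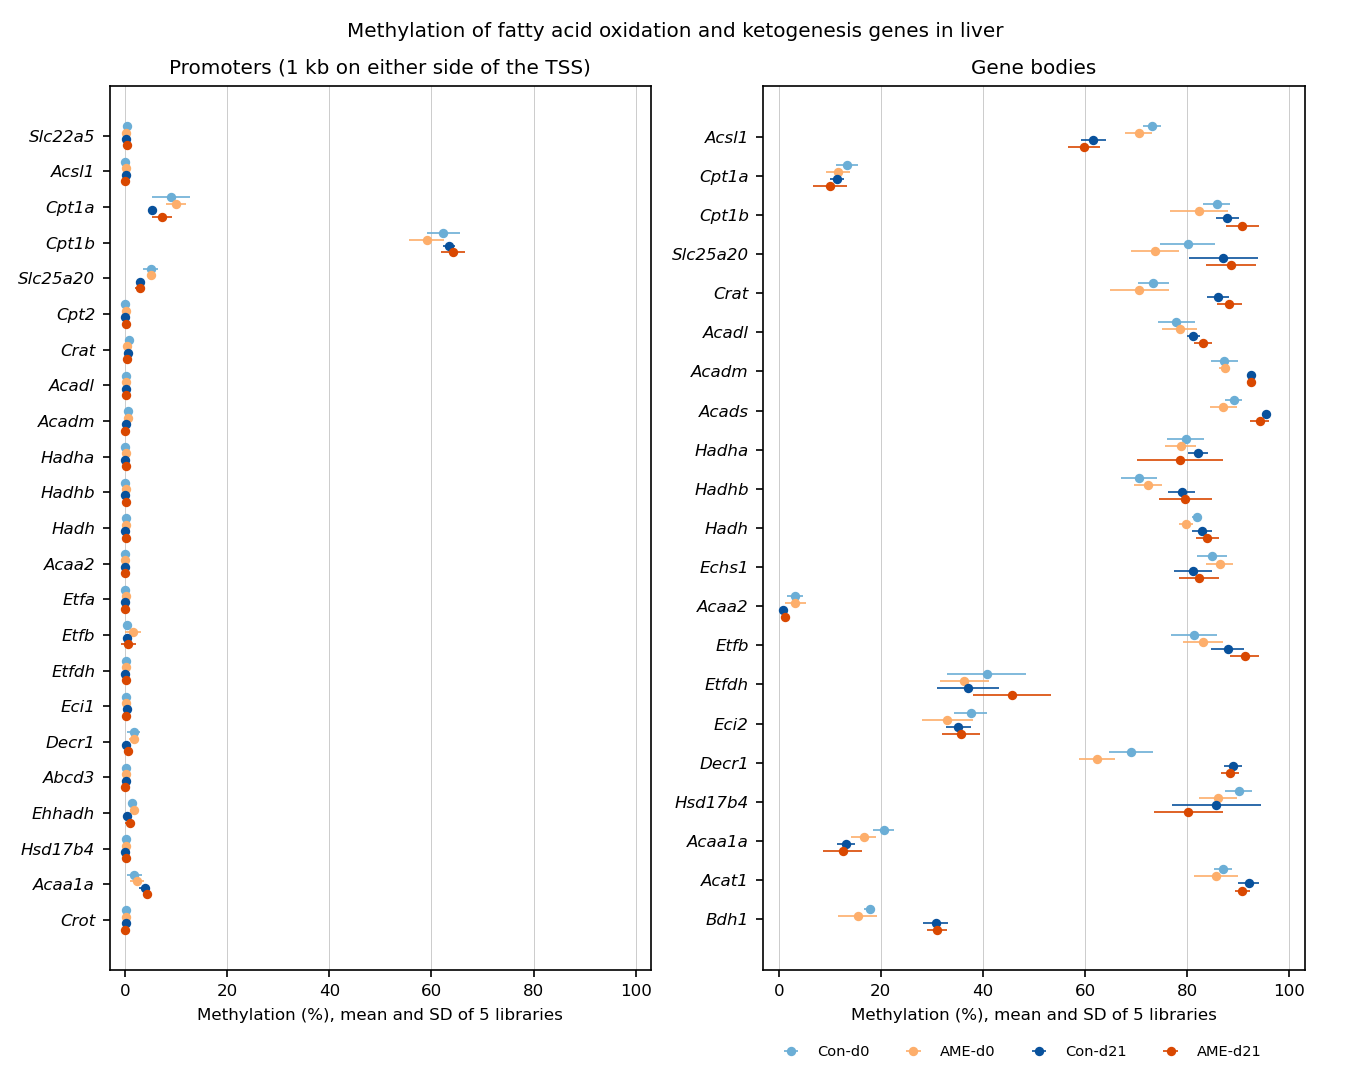
Methylation level in percent (x axis, mean and SD of 5 libraries) of each tested promoter (left) and gene body (right), with 1 row per gene and 1 colour per group. Apart from Cpt1b, the promoters sit below 10%, while most bodies lie above 60%; Acaa2, Cpt1a, Acaa1a, Bdh1, Eci2 and Etfdh are the bodies that stay below 50%.

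Between Con-d0 and Con-d21, 1 of the 23 promoters differed and it fell. The test was limma's on the log2 ratio of methylated to unmethylated reads (1 read added to each), with the Benjamini-Hochberg adjusted p below 0.05 over all features of the same kind. Over all 12406 promoters 15.9% were called, 12.8% higher and 3.17% lower. The median difference was 0 points over the 23 promoters and 0.0244 points over all. Between AME-d0 and AME-d21, 1 of 23 was called, lower, against 16.2% of all promoters (13.4% higher and 2.8% lower). Because the tissue is bulk liver, a change of methylation within cells and a change of the share of cell types cannot be told apart, here and in all results that follow. Marker promoters of several cell types, given above, moved with age in both Con and AME, and their part in these results was not tested.

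The Con promoter was that of Ehhadh, the peroxisomal bifunctional enzyme. Its Con-d0 libraries had 2.20%, 0.362%, 0.920%, 1.48% and 1.55%, and its Con-d21 libraries 0.415%, 0%, 0.292%, 0.627% and 0%. Con-d21 was lower, but the lowest Con-d0 library lay within the Con-d21 range. The mean went from 1.30% ± 0.695 to 0.267% ± 0.271 (log2 -1.37, SE 0.39, limma adjusted p = 0.0288). Leaving out Con-d0 replicate 1, 4 or 5 or Con-d21 replicate 2, 3 or 5 ended the call (adjusted p between 0.0526 and 0.0712). In AME the Ehhadh promoter had 1.78% ± 0.837 and 0.877% ± 0.951 (adjusted p = 0.234).

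Acadm, the medium-chain acyl-CoA dehydrogenase, was the AME promoter. Its values were 0.321%, 0.748%, 0.559%, 0.464% and 0.706% in AME-d0 and 0.14%, 0%, 0%, 0% and 0.179% in AME-d21, on 495 to 1118 reads per library. All AME-d21 libraries were below all AME-d0 libraries, and both groups were below 1%. The log2 change was -1.71 (SE 0.32, limma adjusted p = 0.00185). In Con the levels were 0.649% ± 0.262 and 0.246% ± 0.116, again without overlap (log2 -1.11, SE 0.36, adjusted p = 0.0506). With CpGs kept only at 20 or more reads the AME change of Acadm was -0.114 points (adjusted p = 0.516), and with CpGs covered in all libraries -0.0918 points (adjusted p = 0.715).

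The remaining promoters did not pass the test. Cpt2, which rebuilds acyl-CoA inside the mitochondrion, had 0 methylated reads in Con-d0, which allows up to 0.159%, and 0.0494% in Con-d21. Hadha had 0.0277% and 0.0413%. Acaa2, the mitochondrial thiolase, had 0 methylated reads in all groups, which allows up to 1.03% in the least covered of them, AME-d21. The largest differences in Con among promoters not called were those of Cpt1a (adjusted p = 0.155), Slc25a20 (0.0755) and Acaa1a (0.0963). With the principal APPRIS isoform as TSS, the Acaa1a promoter moved by 1618 bp and was called higher in Con, from 0.306% to 0.739% (adjusted p = 0.0364), but not in AME (0.413% and 0.619%, adjusted p = 0.260). The Cpt1a promoter at its APPRIS TSS was called in no comparison (limma adjusted p = 0.796 in Con).

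Upstream flanks were tested in 5 genes, and Abcd3 and Bdh1 had 2 kept flank CpGs each, too few for the test. Con-d21 exceeded Con-d0 in 2 of them, against 57.7% of all 4137 flanks (51.3% higher, 6.33% lower), and AME-d21 exceeded AME-d0 in 3, against 60.7% (55.1% higher, 5.54% lower). Slc22a5, the plasma membrane carnitine transporter, had 79.7%, 84.3%, 83%, 76.5% and 82.3% in Con-d0 and 98.6%, 91.2%, 92.3%, 91% and 87.8% in Con-d21. The 2 Con groups did not overlap, and the mean rose from 81.2% ± 3.09 to 92.2% ± 3.98 (log2 1.46, SE 0.39, limma adjusted p = 0.0063). In AME the Slc22a5 flank rose from 82.9% ± 4.36 to 96.2% ± 1.20 (adjusted p = 3.18e-05). The flank of Acadm, 4 CpGs, rose from 85.2% ± 6.33 to 94.6% ± 1.82 in Con (adjusted p = 0.0145). In AME the Acadm flank rose from 77.9% ± 6.28 to 96.7% ± 3.59 (adjusted p = 3.52e-04). The Acadm promoter, called lower in AME, differed by only -0.496 points there. That call was lost with CpGs of 20 or more reads (-0.114 points), as given above. That of Acads had 94.3% ± 2.99 and 93.9% ± 3.40 in Con and rose from 89.2% ± 4.43 to 97.9% ± 2.12 in AME (adjusted p = 0.00245). The Cpt1b flank was at 4.74% and 3.53% in Con and is itself promoter DNA of the neighbouring Chkb.

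More gene bodies than promoters changed with age. In Con, 8 of 21 bodies rose and 3 fell, against 62.1% of all 12264 bodies that rose and 5.46% that fell (67.6% called). In AME, 13 rose and 1 fell, against 66.4% and 3.98% (70.4% called). The median difference was 2.49 points over the 21 bodies and 6.28 points over all bodies in Con, and 5.11 and 7.90 points in AME. The mean body level of the 21 genes went from 64.0% ± 0.897 to 66.7% ± 1.01 in Con and from 62.0% ± 1.70 to 67.1% ± 0.662 in AME, that of all genes from 59.4% ± 1.04 to 65.3% ± 0.191 and from 57.7% ± 1.91 to 65.4% ± 0.257. The share of bodies that rose was thus below the background in Con. Without AME-d21 replicate 4 the AME body count was 11 higher and 3 lower, and without AME-d0 replicates 1 and 3 it was 7 higher and 2 lower. Without AME-d0 replicates 1 and 3, 6719 of all 12264 bodies rose and 492 fell, against 8144 and 488 with all libraries. Fewer bodies thus rose over all genes as well. The matching count over all bodies without AME-d21 replicate 4 is not given.

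Among the carriers and the shuttle, Acsl1 and Crat were the 2 genes called in both Con and AME, and they moved in opposite directions. Acsl1, the liver's long-chain acyl-CoA synthetase, had 74.4%, 71.9%, 70.6%, 75.1% and 73.5% in Con-d0 and 61.3%, 64.1%, 62.8%, 57.7% and 62.3% in Con-d21. The groups did not overlap, and the mean fell from 73.1% ± 1.84 to 61.6% ± 2.43 (log2 -0.76, SE 0.11, limma adjusted p = 1.60e-04) over 29 CpGs. In AME it fell from 70.5% ± 2.67 to 59.9% ± 3.14 (adjusted p = 0.0015). Crat, which exchanges acetyl groups between CoA and carnitine, had 69.7%, 71.4%, 75.9%, 72.8% and 77.2% in Con-d0 and 87.6%, 87.8%, 82.6%, 85.8% and 86.6% in Con-d21, again without overlap. The Crat body rose from 73.4% ± 3.08 to 86.1% ± 2.10 in Con (log2 1.14, SE 0.15, adjusted p = 6.21e-05) and from 70.7% ± 5.78 to 88.3% ± 2.40 in AME (adjusted p = 6.03e-05), on 7 CpGs. The bodies of Slc25a20 and Cpt1b rose in AME, from 73.7% ± 4.71 to 88.6% ± 4.95 (adjusted p = 0.00113) and from 82.3% ± 5.67 to 90.8% ± 3.24 (adjusted p = 0.0089). Without AME-d0 replicates 1 and 3, Cpt1b was no longer called (adjusted p = 0.0804). In Con these bodies had 80.1% and 87.1% (Slc25a20) and 85.8% and 87.9% (Cpt1b). The Cpt1a body, 69 CpGs that are mostly unmethylated, had 13.3% ± 2.20 and 11.4% ± 1.36 in Con and was not called. It includes CpGs within 1 kb of the APPRIS start site.

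The acyl-CoA dehydrogenases take the first step of each round, and their tested bodies rose. The Acadm body rose from 87.3% ± 2.64 to 92.4% ± 0.704 in Con (limma adjusted p = 0.0014) and from 87.3% ± 1.04 to 92.5% ± 0.814 in AME (adjusted p = 2.36e-04). That of Acads rose from 89.1% ± 1.64 to 95.5% ± 0.456 in Con (log2 1.31, SE 0.13, adjusted p = 1.24e-05) and from 87.1% ± 2.64 to 94.2% ± 1.83 in AME (adjusted p = 5.15e-04). Acadl, the long-chain enzyme, had 77.9% ± 3.59 and 81.2% ± 1.31 in Con and was called in AME alone, 78.5% ± 3.49 to 83.2% ± 1.76 (adjusted p = 0.0391). This Acadl call was lost without any 1 of AME-d0 replicates 3 and 4 and AME-d21 replicates 1, 2, 3 and 5 (adjusted p between 0.0548 and 0.0999), and without AME-d0 replicates 1 and 3 together (adjusted p = 0.0858).

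The enzymes of the later steps were mixed. Hadhb, the thiolase subunit of the trifunctional protein, rose from 70.6% ± 3.56 to 78.9% ± 2.65 in Con (limma adjusted p = 0.003) and from 72.3% ± 2.74 to 79.7% ± 5.13 in AME (adjusted p = 0.0233), the latter lost without AME-d0 replicate 2 or AME-d21 replicate 4 or 5 (adjusted p between 0.0536 and 0.0600). The AME call of Hadhb was also lost without AME-d0 replicates 1 and 3 together (adjusted p = 0.0689) and with the unweighted mean percentage of its CpGs in place of summed reads (adjusted p = 0.0556). Hadha, its partner subunit, had 79.7% ± 3.65 and 82.2% ± 1.96 in Con and 78.7% ± 3.08 and 78.6% ± 8.35 in AME, and was called in neither. The body of Hadh, the medium- and short-chain hydroxyacyl-CoA dehydrogenase, had 82.0% and 82.9% in Con and was called in AME (79.8% to 83.9%, adjusted p = 0.0295). Leaving out AME-d0 replicate 1, 2 or 4 or AME-d21 replicate 2 ended the Hadh call (adjusted p between 0.0548 and 0.0775), as did leaving out AME-d0 replicates 1 and 3 together (adjusted p = 0.0510). Echs1, the short-chain enoyl-CoA hydratase, had 84.8% and 81.1% in Con, not called. Acaa2 fell in Con from 3.23% ± 1.54 to 0.887% ± 0.728 (adjusted p = 0.0101) and had 3.25% and 1.26% in AME (adjusted p = 0.0917). With the mean percentage of the CpGs in place of summed reads, Acaa2 had an adjusted p of 0.0802 in Con.

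In electron transfer, the body of Etfb, the β subunit of the electron transfer flavoprotein, rose from 81.3% ± 4.47 to 87.9% ± 3.17 in Con (limma adjusted p = 0.0252) and from 83.1% ± 3.92 to 91.2% ± 2.86 in AME (adjusted p = 0.00323). The Con call of Etfb was lost without Con-d0 replicate 1, 3 or 4 or Con-d21 replicate 2 or 4 (adjusted p between 0.0517 and 0.0622), and with the mean percentage of the CpGs (adjusted p = 0.0587). Etfdh, which hands the electrons to ubiquinone, was called higher in AME on 3 CpGs, 36.4% ± 4.75 to 45.6% ± 7.61 (adjusted p = 0.0434), and had 40.8% and 37.2% in Con. The Etfdh call was lost without AME-d0 replicate 1, 3 or 4 or AME-d21 replicate 2, 3, 4 or 5 (adjusted p between 0.0611 and 0.106), and without AME-d0 replicates 1 and 3 together (adjusted p = 0.212). With the mean percentage of its CpGs the Etfdh difference was 4.29 points (adjusted p = 0.348).

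Decr1, the 2,4-dienoyl-CoA reductase needed for polyunsaturated chains, had the largest rise of a body in both comparisons. Its Con-d0 libraries had 74%, 71.7%, 69.4%, 62.6% and 67.6% and its Con-d21 libraries 86.9%, 91.7%, 88.4%, 89.6% and 88.5%. In AME-d0 they had 60.3%, 66.7%, 65.5%, 58.3% and 60.9%, and in AME-d21 87.9%, 88.6%, 85.6%, 90.3% and 89.5%. At each age the libraries kept to a narrow range that did not reach the other age. The mean rose from 69.1% ± 4.35 to 89.0% ± 1.77 in Con (log2 1.82, SE 0.17, limma adjusted p = 7.41e-06) and from 62.3% ± 3.57 to 88.4% ± 1.79 in AME (log2 2.14, SE 0.16, adjusted p = 1.69e-06), on 4 CpGs. Eci2, the peroxisomal enoyl-CoA isomerase, had 37.6% and 35.2% in Con and 33.0% and 35.8% in AME, and was called in neither. Its APPRIS start site lies 32815 bp inside the gene record. The 20 CpGs within 1 kb of that site are counted to the body here. They had 0.188% and 0.0477% in Con and 0.182% and 0.0556% in AME.

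Of the peroxisomal genes, Acaa1a fell. It had 19.9%, 19.8%, 18.2%, 21.1% and 23.7% in Con-d0 and 11.9%, 13.5%, 12.4%, 11.8% and 16.2% in Con-d21 over 71 CpGs, with no overlap. The mean went from 20.5% ± 2.05 to 13.2% ± 1.84 (log2 -0.77, SE 0.14, limma adjusted p = 5.01e-04). In AME the Acaa1a body had 16.7% ± 2.43 and 12.5% ± 3.88 (adjusted p = 0.0602). With the mean percentage of the CpGs in place of summed reads, the Con change of Acaa1a was -1.68 points (adjusted p = 0.509). Most of its 71 CpGs lie in an unmethylated stretch, and the fall is located in 2 bins described below. The body of Hsd17b4, the D-bifunctional protein, had 90.1% ± 2.59 and 85.7% ± 8.68 in Con and 86.0% ± 3.70 and 80.2% ± 6.75 in AME, not called.

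The bodies of both ketone body genes rose. Bdh1 interconverts acetoacetate and β-hydroxybutyrate, and Acat1 is the mitochondrial acetoacetyl-CoA thiolase. Bdh1 had 17.8%, 17.7%, 16.7%, 17.1% and 19.6% in Con-d0 and 30.3%, 26.9%, 33.5%, 32% and 31.2% in Con-d21 over 55 CpGs. In AME-d0 it had 9.97%, 17%, 13.1%, 18.3% and 19.1%, and in AME-d21 31.6%, 31.1%, 28.5%, 33.9% and 29.9%. The d21 libraries were all above the d0 libraries in both. The 2 lowest values, 9.97% and 13.1%, were those of AME-d0 replicates 1 and 3, which also had the lowest share of methylated reads over the genome. The mean of Bdh1 rose from 17.8% ± 1.13 to 30.7% ± 2.47 in Con (log2 1.03, SE 0.12, limma adjusted p = 2.11e-05) and from 15.5% ± 3.85 to 31.0% ± 2.01 in AME (log2 1.33, SE 0.21, adjusted p = 1.53e-04). Acat1 rose from 87.0% ± 1.79 to 92.0% ± 2.14 in Con (adjusted p = 0.00453) and from 85.7% ± 4.25 to 90.8% ± 1.43 in AME (adjusted p = 0.0262), on 8 CpGs. With libraries thinned to the smallest total, Acat1 was called in neither (limma adjusted p = 0.0706 in Con and 0.0768 in AME). Its AME call was also lost with CpGs of at least 20 reads (0.116) and with CpGs covered in all 5 libraries (0.114). The AME call of Acat1 was lost without AME-d0 replicate 1 or 3 or AME-d21 replicate 2 (adjusted p between 0.0597 and 0.0675), and without AME-d0 replicates 1 and 3 together the Acat1 difference was 2.34 points (adjusted p = 0.197).

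At the scale of 200 bp, falls were about as frequent as rises in Con and less frequent in AME. A bin was called at a limma adjusted p below 0.05 over all bins and a difference of at least 10 points. In Con 15 of 154 bins rose and 16 fell, against 26.6% and 3.04% of all 157989 bins (29.6% called). In AME 22 rose and 13 fell, against 32% and 2.68% (34.7% called). Bins differ in place, and 74 of the 154 lie within 1 kb of a protein-coding TSS, where the listed genes had 0 higher and 2 lower bins in Con, against 3.77% and 1.01% of all bins of that kind (4.78% called). In AME they had 1 and 1 there, against 4.33% and 0.869% (5.2% called). Of the 9 bins 1 to 5 kb upstream of a TSS, 2 rose and 2 fell in Con, against 29.1% and 4.34% (33.4% called), and 3 rose and 2 fell in AME, against 34.5% and 4.12% (38.6% called). Of the 71 bins within gene bodies, 13 rose and 12 fell in Con (18.3% and 16.9%), against 33% and 4.38% of all such bins (37.4% called), and 18 rose and 10 fell in AME, against 39.2% and 3.91% (43.1% called). Without AME-d21 replicate 4, 20 bins rose and 12 fell in AME, and without AME-d0 replicates 1 and 3, 18 rose and 13 fell. The matching counts over all bins are not given, so that these moves are not read as particular to the listed genes.

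**Figure D2:**
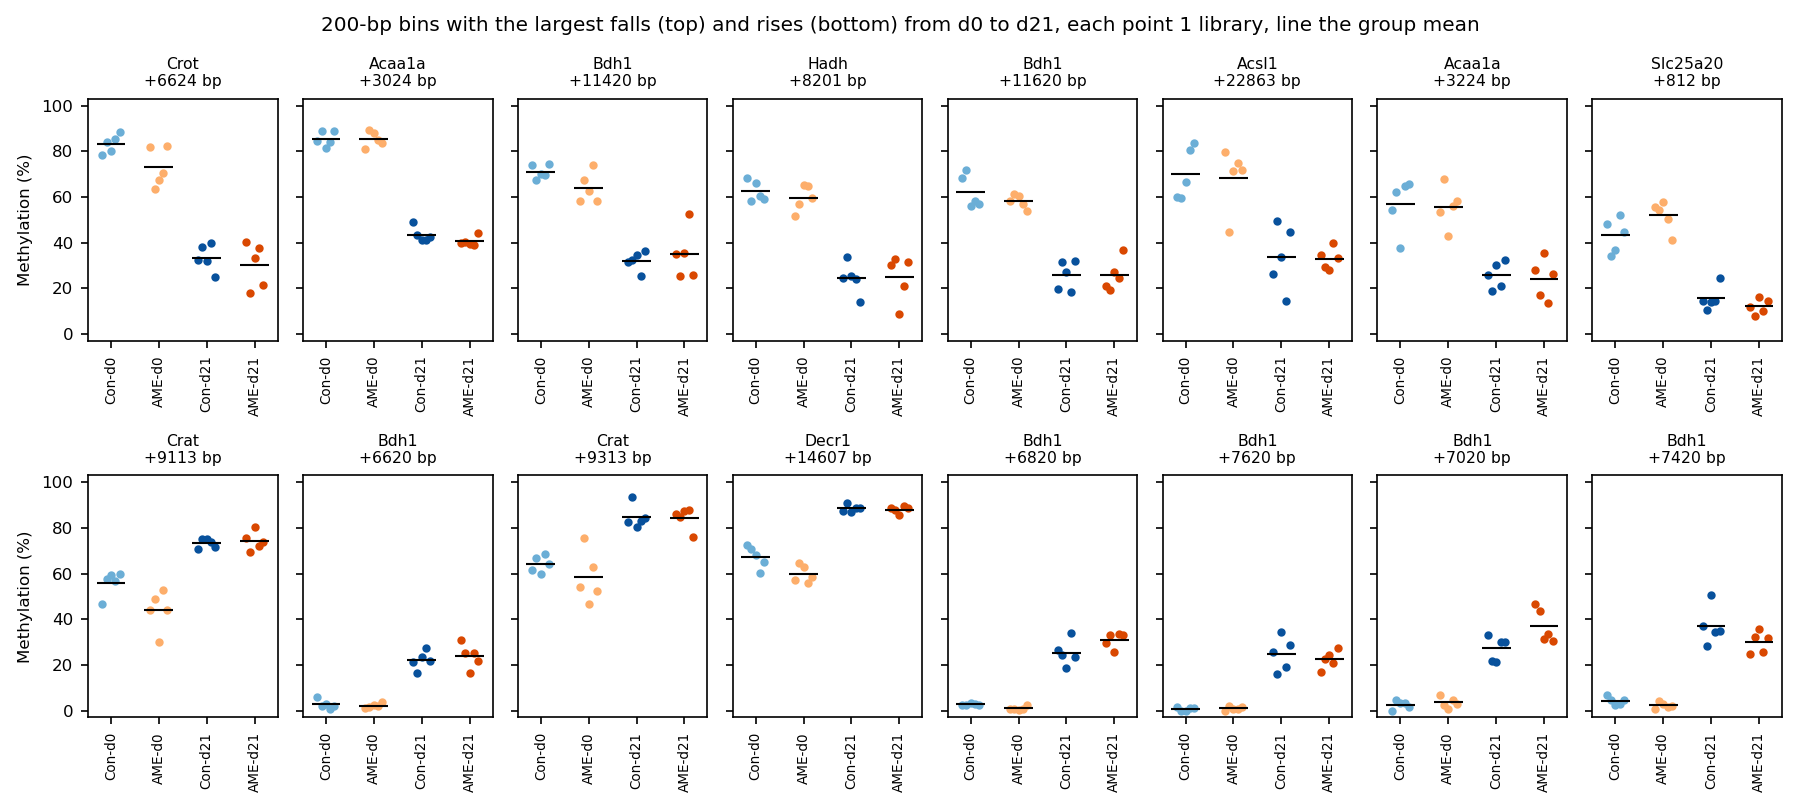
Methylation in percent (y axis) of the 8 bins with the largest called falls (top row) and the 8 with the largest called rises (bottom row) in Con, for the 4 groups along the x axis, with each point 1 library and each line a group mean. In all 16 the d0 and d21 libraries are separate in Con and in AME, and in none does AME differ from Con past the test at either age.

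Crot, the peroxisomal carnitine octanoyltransferase that exports shortened chains, held the largest fall in Con, in an intronic bin of 2 measured CpGs (chr5:8990601-8990800, the first sequence above). The Con-d0 libraries had 78.6%, 84.2%, 80%, 85.3% and 88.7%, and the Con-d21 libraries 32.5%, 38%, 31.8%, 40% and 25%. AME-d0 had 81.8%, 63.6%, 67.6%, 70.5% and 82.4%, and AME-d21 40.5%, 18.2%, 33.3%, 37.5% and 21.4%. No d21 library came near a d0 library. Each value rests on a count of only 16 to 62, in which a read that covers both CpGs is counted at each. The Crot bin fell from 83.4% ± 4.10 to 33.5% ± 5.89 in Con (log2 -3.14, SE 0.29, limma adjusted p = 3.72e-06) and from 73.2% ± 8.48 to 30.2% ± 9.88 in AME (log2 -2.54, SE 0.37, adjusted p = 9.42e-05). Its promoter, in contrast, was at 0.0983% and 0.103% in Con.

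The next largest fall in Con, and the largest in AME, was the exonic bin of Acaa1a, 3024 bp after the TSS, with 5 measured CpGs (chr9:119342601-119342800) and 172 to 341 reads per library. Con-d0 had 84.5%, 88.7%, 81.3%, 84.2% and 88.8%, and Con-d21 49%, 43.3%, 41.3%, 41.2% and 42.3%. AME-d0 had 81%, 89.2%, 88.1%, 85.1% and 83.8%, and AME-d21 40.1%, 40.4%, 39.5%, 38.9% and 44.2%. The spread within a group was small and the gap between the ages was more than 30 points in every pairing of libraries. The mean fell from 85.5% ± 3.23 to 43.4% ± 3.23 in Con (log2 -2.94, SE 0.26, limma adjusted p = 2.84e-06) and from 85.5% ± 3.32 to 40.6% ± 2.10 in AME (adjusted p = 1.79e-06). The adjoining bin, 3224 bp after the TSS, fell from 57.0% ± 11.6 to 25.8% ± 5.87 in Con and from 55.8% ± 8.90 to 24.1% ± 8.77 in AME. A bin at 4824 bp rose from 85.8% ± 5.08 to 96.8% ± 2.56 in Con and from 84.8% ± 4.43 to 95.9% ± 2.43 in AME. This part of Acaa1a lies closer to the TSS of Myd88 than to its own, and also within the record of Slc22a14.

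Bdh1 changed in both directions along its length. The 5 bins 6620 to 7620 bp after its TSS, −124 to 876 bp from that of Gm15743, were almost unmethylated at d0 and were between 22.0% and 37.0% in Con-d21. In the bin at 6820 bp Con-d0 had 2.39%, 2.25%, 3.46%, 2.86% and 2.40% and Con-d21 26.6%, 24.2%, 18.6%, 33.9% and 23.5%. AME-d0 had 0.837%, 0.601%, 0.403%, 0.694% and 2.58%, and AME-d21 29.5%, 32.9%, 25.5%, 33.3% and 33.2%. The ages did not overlap, and the mean rose from 2.67% ± 0.498 to 25.3% ± 5.61 in Con (log2 3.47, SE 0.27, limma adjusted p = 1.17e-06) and from 1.02% ± 0.884 to 30.9% ± 3.43 in AME (log2 5.19, SE 0.34, adjusted p = 2.18e-07). The largest rise in Con was at 7420 bp, from 4.23% ± 1.78 to 37.0% ± 8.32 (adjusted p = 4.27e-06), with 2.26% ± 1.29 and 29.9% ± 4.68 in AME. The bins at 6620, 7020 and 7620 bp rose from 2.70% to 22.0%, from 2.52% to 27.2% and from 0.739% to 24.7% in Con, and from 2.18% to 23.8%, from 3.54% to 37.1% and from 1.04% to 22.4% in AME. Another 2 bins of Bdh1, in an intron, fell. At 11420 bp Con-d0 had 74%, 67.5%, 70.2%, 69.6% and 74.6% and Con-d21 31.7%, 32.6%, 34.6%, 25.5% and 36.4%, on 34 to 79 reads. At 11620 bp Con-d0 had 68.3%, 71.7%, 56.2%, 58.3% and 57.1% and Con-d21 19.6%, 31.7%, 27.1%, 18.6% and 31.9%. Neither pair overlapped (adjusted p = 1.31e-05 and 8.08e-05), and in AME the means fell from 64.1% ± 6.59 to 34.9% ± 11 and from 58.2% ± 2.92 to 25.8% ± 6.84. The value of the Bdh1 body thus averages a gain at the internal CpG-dense stretch and a loss further on.

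**Figure D3:**
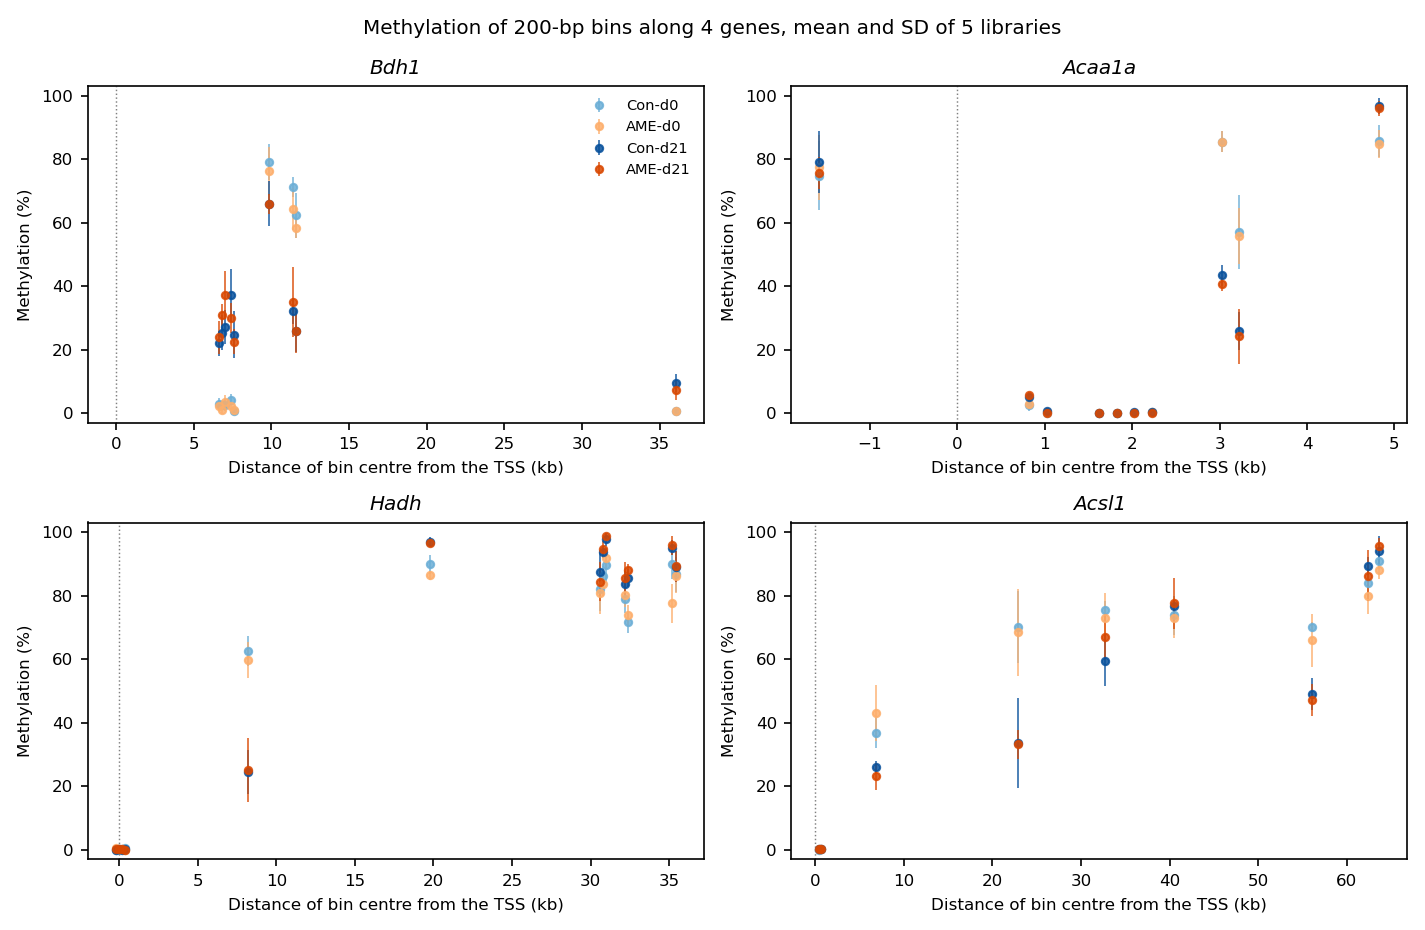
Methylation in percent (y axis, mean and SD of 5 libraries) of the 200-bp bins along Bdh1, Acaa1a, Hadh and Acsl1 against the distance of the bin centre from the TSS in kb (x axis, dotted line at 0), with 1 colour per group. The bins near the TSS of Hadh and Acsl1 stay near 0%, and the bins that fall stand apart from neighbours that stay high or rise.

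Hadh held another large fall in an intron, 8201 bp after the TSS (chr3:131263801-131264000), with 99 to 185 reads per library. Con-d0 had 68.5%, 58.5%, 66.4%, 60.4% and 59% and Con-d21 24.5%, 33.8%, 25.6%, 24.3% and 14%. AME-d0 had 51.5%, 57.1%, 65.3%, 65.1% and 59.7% and AME-d21 30.2%, 33%, 8.94%, 21.2% and 31.5%. The ages were separate in both, at 62.5% ± 4.57 and 24.4% ± 7.02 in Con (log2 -2.38, SE 0.30, limma adjusted p = 4.82e-05) and 59.7% ± 5.76 and 25.0% ± 10.1 in AME (adjusted p = 4.45e-04). Other bins of Hadh rose, as at 32401 bp from 71.7% ± 3.41 to 85.5% ± 2.82 in Con (adjusted p = 0.00223), so that the Hadh body combines bins of both directions.

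In Slc25a20 the bin 812 bp after the TSS, at the edge of the promoter, had 48.1%, 34.3%, 36.6%, 51.9% and 44.8% in Con-d0 and 14.6%, 10.7%, 14%, 14.5% and 24.4% in Con-d21. In AME-d0 it had 55.8%, 54.3%, 57.6%, 50.6% and 41.3%, and in AME-d21 11.7%, 7.79%, 16.2%, 10.3% and 14.7%. The ages did not overlap, and the bin fell from 43.2% ± 7.51 to 15.6% ± 5.17 in Con (log2 -2.0, SE 0.31, limma adjusted p = 2.0e-04) and from 51.9% ± 6.48 to 12.1% ± 3.38 in AME (adjusted p = 7.01e-06). Acsl1 fell at 4 bins in Con, most at 22863 bp, from 70.1% ± 11.4 to 33.7% ± 14.2 (adjusted p = 0.00145), and at 56063 bp from 70.1% ± 1.5 to 49.1% ± 5.02 (adjusted p = 9.12e-04). In AME these bins fell from 68.5% ± 13.8 to 33.1% ± 4.69 and from 65.9% ± 8.30 to 47.1% ± 4.95. In Cpt1a a bin that overlaps an exon, 11566 bp after the TSS, fell from 84.0% ± 6.14 to 62.6% ± 6.66 in Con (adjusted p = 0.00139) and from 73.2% ± 5.78 to 60.6% ± 8.75 in AME (adjusted p = 0.0464). The AME call of the Cpt1a bin was lost without AME-d0 replicate 3, 4 or 5 or AME-d21 replicate 1, 2, 3 or 4 (adjusted p between 0.0515 and 0.117), without AME-d0 replicates 1 and 3 together (adjusted p = 0.0507) and with the mean percentage of its CpGs (adjusted p = 0.0812).

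The rises outside Bdh1 were found in bins that were already methylated at birth. The Decr1 bin at 14607 bp had 72.3%, 70.7%, 68.3%, 60.2% and 65.2% in Con-d0 and 87.4%, 91%, 87.1%, 88.5% and 88.6% in Con-d21, without overlap. It rose from 67.4% ± 4.80 to 88.5% ± 1.55 in Con (log2 1.85, SE 0.25, limma adjusted p = 8.11e-05) and from 59.8% ± 3.73 to 88.1% ± 1.45 in AME (adjusted p = 1.48e-05). The exonic bins of Crat at 9313 and 9113 bp rose from 64.3% ± 3.52 to 84.7% ± 5.07 and from 56.0% ± 5.46 to 73.2% ± 2.06 in Con, and from 58.3% ± 11.2 to 84.5% ± 4.86 and from 43.9% ± 8.64 to 74.2% ± 4.13 in AME. Etfb at 7217 bp rose from 84.7% ± 4.80 to 96.3% ± 1.13 in Con. By role, the carnitine genes had 3 of 50 bins higher and 7 lower in Con and 5 and 5 in AME, and the ketone body genes 5 of 11 higher and 3 lower in Con and 5 and 2 in AME. Over all bins 26.6% were higher and 3.04% lower in Con, and 32% and 2.68% in AME.

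The 2 age comparisons use different animals and gave 27 bins called in both and in the same direction, 87.1% of the Con bins and 77.1% of the AME bins. All 31 bins called in Con moved in the same direction in AME. The matching share over all bins is not given, so that these counts are not read as particular to the listed genes. Of the bins called in Con, 26 of 31 stayed called whichever library was left out, and of those in AME 26 of 35. The 16 bins plotted by library were among them, and their calls were lost under no alternative that gave a value, apart from Bdh1 at 11420 bp in AME with the mean percentage of the CpGs in place of summed reads (adjusted p = 0.0643).

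**Figure D4:**
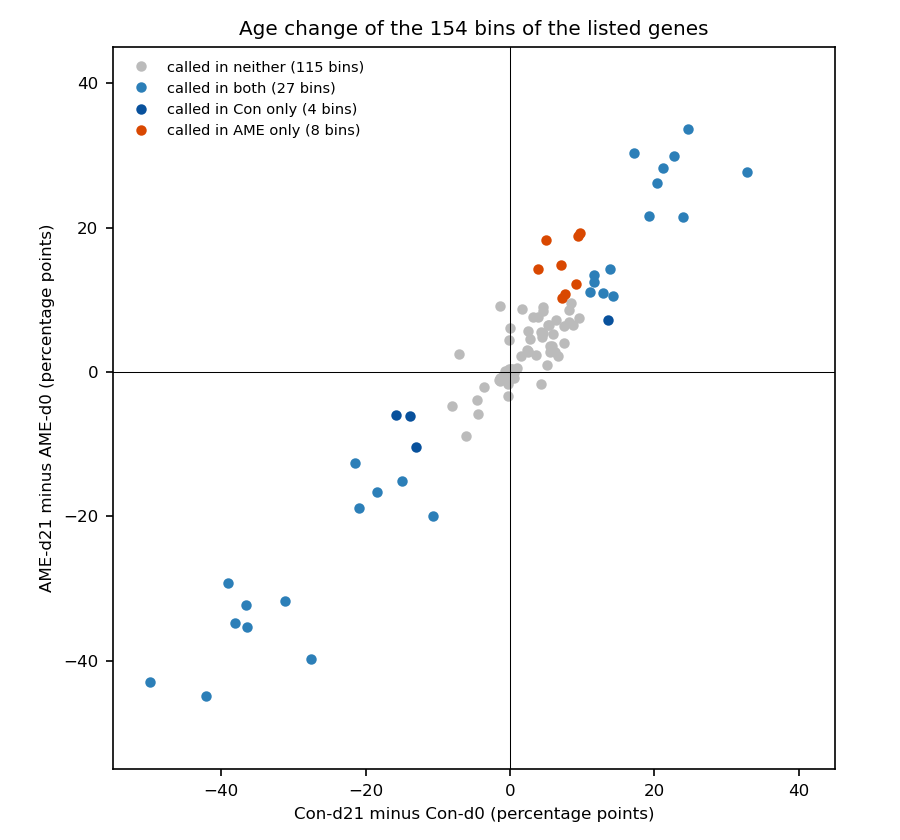
Difference between d21 and d0 in percentage points in Con (x axis) and AME (y axis) for the 154 bins, coloured by the comparison in which the bin was called. The 27 bins called in both moved the same way in both, and the 4 called in Con alone and the 8 called in AME alone lie on the same side of 0 in both.

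At single CpGs a difference was called at a quasi-binomial p below 0.001 and at least 10 points. In Con 24 of 1019 CpGs rose and 28 fell, against 2.51% and 0.74% of all CpGs (3.25% called). In AME 35 rose and 20 fell, against 2.59% and 0.562% (3.15% called). Bdh1 alone held 25 of the 52 in Con (20 higher, 5 lower) and 30 of the 55 in AME (27 higher, 3 lower), and neighbouring CpGs share reads. Acaa1a followed with 6 in Con and 5 in AME. The largest fall was at chr16:31433695 in Bdh1, from 74.2% to 5.92% in Con, measured in 8 libraries. Next were chr9:119342766 in Acaa1a, from 92.8% to 32.8%, and chr5:8990731 in Crot, from 88.2% to 28.9%. The largest rise was at chr16:31428961 in Bdh1, from 5.57% to 52.9%, followed by chr16:31428939 in the same stretch, from 7.90% to 51.9%.

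Whether the maternal environment changed the same genes was asked at each age apart. No promoter, flank, body or bin of the listed genes passed limma's test between AME-d0 and Con-d0 or between AME-d21 and Con-d21, and over all features of each kind the share called was 0% as well. No listed CpG passed the quasi-binomial test, against 5 CpGs of all 906622 at d0 (0.000551%) and 2 at d21 (0.000221%). With limma per CpG instead, 2 listed CpGs passed at d0 and 1 at d21, against 0.0831% and 0.0613% of all CpGs, and with a likelihood ratio test 2 and 0, against 0.198% and 0.115%. At an unadjusted p below 0.05, 1 promoter, 0 flanks, 3 bodies, 11 bins and 10 CpGs passed at d0, against 5.3%, 6.21%, 7.52%, 5.52% and 1.68% of all features of these kinds. At d21 2, 1, 0, 8 and 7 passed, against 5.29%, 5%, 4.67%, 4.98% and 1.48%. The lowest adjusted p among the listed genes was 0.654 at d0 and 0.755 at d21. The median difference of the bodies was -2.17 points at d0, against -1.44 over all bodies, and 0.369 and 0.00688 points at d21.

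The largest differences at d0 are given as values only. Hadh at 35201 bp had 88.7%, 90.7%, 83.1%, 91.2% and 96.8% in Con-d0 and 68.1%, 80%, 75%, 81.4% and 83.3% in AME-d0, and only the highest AME-d0 library reached the lowest of Con-d0. The means were 90.1% ± 4.94 and 77.6% ± 6.12 (limma adjusted p = 0.905), and 95.1% and 95.9% at d21. The lowest AME-d0 values, 68.1% and 75%, were again those of replicates 1 and 3. Crat at 9113 bp was 12.2 points lower in AME-d0 (56.0% and 43.9%), and the Cpt1a bin at 11566 bp 10.8 points lower (84.0% and 73.2%). Among the bodies Decr1 had 69.1% in Con-d0 and 62.3% in AME-d0 (limma adjusted p = 0.654), Slc25a20 80.1% and 73.7%, and Eci2 37.6% and 33.0%. Among the promoters the largest differences were those of Cpt1b, 62.3% and 59.0%, Etfb, 0.346% and 1.59%, and Cpt1a, 8.98% and 9.90%. Among the flanks they were Acadm (85.2% and 77.9%), Acads (94.3% and 89.2%) and Acaa1a (77.1% and 81.8%). The Con and AME libraries were without overlap in 2 of 154 bins at d0 (0.834% of all bins) and in 1 at d21 (0.656%), and in no promoter, flank or body at either age.

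At d21 the largest bin differences were Bdh1 at 7020 bp (27.2% in Con-d21 and 37.1% in AME-d21), Echs1 at 1776 bp (78.2% and 86.6%, limma adjusted p = 0.973) and Acsl1 at 32663 bp (59.5% and 66.9%). Among the bodies they were Etfdh (37.2% and 45.6%), Hsd17b4 (85.7% and 80.2%) and Hadha (82.2% and 78.6%). Among the promoters Cpt1a had 5.27% and 7.31%, Cpt1b 63.5% and 64.2% and Ehhadh 0.267% and 0.877%. The promoters with an unadjusted p below 0.05 were Slc22a5, 0.152% and 0.337%, and Hsd17b4, with 0 methylated reads in Con-d21, which allows up to 0.102%, and 0.114% in AME-d21 (limma adjusted p = 0.755). Among the flanks Slc22a5 had 92.2% and 96.2%, Acads 93.9% and 97.9% and Acadm 94.6% and 96.7%.

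**Figure D5:**
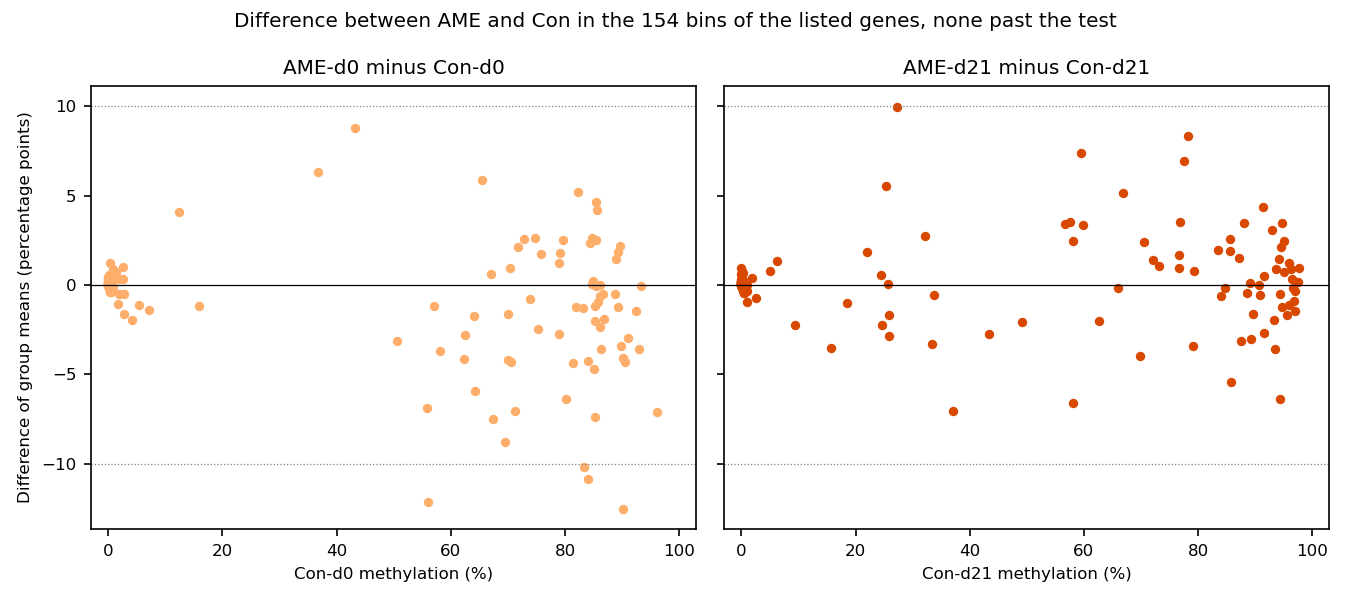
Difference of group means, AME minus Con, in percentage points (y axis) against the Con level in percent (x axis) for the 154 bins at d0 (left) and d21 (right), with dotted lines at 10 points in either direction. At d0 4 bins lie past a dotted line, all lower in AME, and none at d21, and no bin passed the test.

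A change with age that differed between AME and Con was tested as an interaction. It was called for 0 promoters, flanks, bodies and bins by limma, with 1, 2, 2 and 9 at an unadjusted p below 0.05, against 5.17%, 5.46%, 6.25% and 5.04% of all promoters, flanks, bodies and bins. A gene called with age in Con or AME alone, such as Ehhadh, Acaa1a, Etfdh or Hadh, was thus not shown to differ between them. The largest interaction differences among the bins were Hadh at 35201 bp, 13.3 points (limma adjusted p = 0.985), Crat at 9113 bp, 13.2 points, and Slc25a20 at 812 bp, -12.3 points, each as the AME change minus the Con change.

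For the setting of the listed genes, 55 further genes of fatty acid uptake, oxidation and ketone body use were counted in the same way. Of their 38 tested promoters 2 rose and 3 fell in Con, against 12.8% and 3.17% of all promoters. Of their 38 tested bodies 21 rose and 6 fell in Con, against 62.1% and 5.46% of all bodies, with a median of 4.74 points against 6.28. In AME 3 promoters rose and 2 fell, against 13.4% and 2.8%, and 21 bodies rose and 4 fell, against 66.4% and 3.98%, with a median of 6.21 points against 7.90. None differed between AME and Con. The largest fall of a body in Con was that of Decr2, the peroxisomal dienoyl-CoA reductase and counterpart of Decr1. The Decr2 body fell from 78.5% ± 2.67 to 27.0% ± 2.81 in Con (log2 -3.29, limma adjusted p = 1.0e-07) and from 78.7% to 27.8% in AME, while that of Decr1 rose.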

How the data were processed

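The authors digested liver DNA with MspI, sequenced bisulfite-treated libraries, and trimmed, aligned and called the reads (FastQC, Trim Galore, Bismark, BWA and mm10 in the submitters' processing notes; no source used here gave their versions or the handling of duplicates and strands). The authors deposited, per library, the counts of methylated and unmethylated reads at each CpG and the percent methylation made from them. All values here were computed from the deposited counts; the percent column was not used beyond a check.

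Reads of the kept CpGs (at least 10 reads in at least 3 libraries of each group) were summed per promoter, flank, body and 200-bp bin, and the percentages printed are methylated reads over all reads. A level thus weights deeply read CpGs more, and 1 library has few reads in a small bin. RRBS reads carry no molecular identifiers, and limits from a count of 0 (3 reads) cover counting error only. Where a read is counted at several CpGs, these limits are lower than limits from separate reads would be. The log2 ratio of methylated to unmethylated reads, with 1 read added to each, was fitted with limma 3.58.1 in R 4.3.3 separately for the 10 libraries of each comparison, with p adjusted over all autosomal features of a kind. A few flanks and bodies, none of the listed genes, were called with age although their group means did not differ. The read added to each count can give such a call. Single CpGs were tested with a quasi-binomial model whose overdispersion was at least 1 (Python 3.11.15, numpy 2.4.6, scipy 1.17.1, pandas 2.3.3; figures with matplotlib 3.10.9). The fits were tested on simulated data. Replicate pairs differed by more than counting noise (mean chi-square per CpG 1.142 to 1.412). This check cannot tell separate animals from repeat libraries of the same DNA. Every library was counted as a sample of its own because it is labelled as a separate replicate.

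The genes, lists and rules were chosen with earlier results of these data known. The 30 genes are counted by role. Per comparison, called promoters, flanks and bodies are named up to 10 each, bins up to 8 in each direction and CpGs up to 8, by size. Without a call the 3 largest differences are given. Cpt1a, Cpt2, Acadm, Hadha, Ehhadh, Acat1, Bdh1 and Pdk4 are named throughout. Bins near the limits of this rule and further bins of the same genes, named to place a body's change, were chosen after their values were seen.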

Additional observations from a re-analysis of the deposited data

Results flagged for a closer look

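In groups of 5 libraries, the highest or lowest value was set against the other 4 by Dixon's test for the regions and bins of the listed genes that were called with age and named, and for the X reads and methylated share of the libraries, 156 groups in all. Chance marks about 1 group in 20, or 5%, and 9 values were marked. The flank of Acadm had 97.7% in Con-d21 replicate 5, against 93% to 94.1% in the others. The Acaa1a bin at 3024 bp had 49% in Con-d21 replicate 1, against 41.2% to 43.3%, and 44.2% in AME-d21 replicate 5, against 38.9% to 40.4%. The Acsl1 bin at 22863 bp had 44.6% in AME-d0 replicate 2, against 71.2% to 79.7%. The Bdh1 bin at 6820 bp had 2.58% in AME-d0 replicate 5, against 0.403% to 0.837%. The Crat bin at 9313 bp had 76.1% in AME-d21 replicate 5, against 84.6% to 88%, and the Crat bin at 9113 bp had 46.6% in Con-d0 replicate 1, against 56.6% to 59.7%. The Slc25a20 bin at 812 bp had 24.4% in Con-d21 replicate 5, against 10.7% to 14.6%. Within Con or within AME, none of these values reached the range of the other age. The Acsl1 value in AME-d0 lay within the range of Con-d21, 14.3% to 49.5%. Apart from the listed genes, the reads on X per 100 autosomal reads were 2.88 in AME-d21 replicate 4, against 1.53 to 1.55 in the other 4 libraries of its group.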

How the results depend on the processing

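No call of the listed genes changed its direction under any alternative, and no promoter, flank, body or bin was called between AME and Con under any of them. Promoter calls in Con, 1 as reported, were 0 with a minimum of 10 points, 2 with 0.5 reads added, 4 with limma's trend and robust options, 5 with all 20 libraries in 1 fit, 3 with CpGs of at least 5 reads, 2 with at least 20 reads, 2 with CpGs covered in all 5 libraries, 2 with libraries thinned to the smallest total, 2 with the unweighted mean percentage of the CpGs and 3 with APPRIS start sites. In AME, also 1, they were 0, 2 (trend and robust), 2 (20 libraries), 3 (5 reads), 0 (all 5 libraries), 2 (thinned) and 2 (mean percentage). Flanks in Con, 2, were 1 at 10 points, 0 at 20 reads, 1 in all 5 libraries, 1 thinned and 0 with at least 5 CpGs. Flanks in AME, 3, were 5 at 5 reads, 0 at 20 reads, 1 in all 5 libraries and 1 with 5 CpGs. The listed flanks tested, 5 as reported, were 7 at 5 reads, 1 at 20 reads and 3 in all 5 libraries. They were 4 thinned and 2 with at least 5 CpGs. With a minimum of 10 points, bodies went from 11 to 4 in Con and from 14 to 5 in AME. Bins in Con, 31, were 50 without a minimum difference and 18 at 20 reads, and those in AME, 35, were 22 at 20 reads. At 20 reads 95 listed bins were tested in place of 154. Of all 88359 bins then tested, 21485 rose and 2868 fell in Con, and 26177 and 2570 in AME. CpG calls in Con, 52, were 92 with limma, 106 with a likelihood ratio test and 32 at 20 reads. In AME, 55, they were 97, 119 and 35. At 20 reads 610 listed CpGs were tested in place of 1019. Of all 498932 CpGs then tested, 16391 rose and 4562 fell in Con, and 15614 and 3379 in AME. Without AME-d0 replicates 1 and 3, AME had 9 bodies, 31 bins and 20 CpGs. Of all 900725 CpGs then tested, 7901 rose and 2486 fell, against 23502 and 5094 of 906622 with all libraries. The cause of these moves was not tested.

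Leaving out 1 library gave 0 to 2 and 1 to 2 promoters in Con and AME, 2 and 3 flanks, 10 to 12 and 10 to 14 bodies, 28 to 34 and 30 to 35 bins, 35 to 43 and 38 to 45 CpGs, and 0 throughout between AME and Con. Without AME-d21 replicate 4, AME had 2 promoters, 3 flanks, 14 bodies, 32 bins and 42 CpGs.

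Same-numbered libraries did not deviate together (correlations between -0.015 and 0.0691 over 154606 bins), so the numbers do not pair them. With the replicate number as a block, promoters were 2 in Con and 1 in AME, flanks 2 and 3, bodies 11 and 13, bins 30 and 34 and CpGs, by limma, 87 and 90. Between AME and Con the block gave 0 regions and bins, and 2 CpGs at d0, as did limma without it and the likelihood ratio test; at d21 limma gave 1 CpG. The CpGs had a median of 7 to 13 reads, and no alternative tested depth on its own beyond the minimum of reads and the thinning.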
